A study of Mus musculus with 2 samples.

Results

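Dpp4 and Pi16 interstitial progenitors are fibroblast-like cells of fat and other connective tissue. Dpp4 encodes dipeptidyl peptidase 4, a membrane peptidase, and Pi16 encodes peptidase inhibitor 16, and both are used as surface or secreted marks of stromal cells that lie in the fibrous sheets around fat lobules and vessels. In adipose tissue these cells are placed upstream of committed preadipocytes, which carry Pparg and Col15a1, and beside a further stromal population marked by F3, Fmo2 and Gdf10 that has been described as restraining fat cell formation.

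The nuclei were chosen by counts of unique molecular identifiers (UMIs, single counted RNA molecules) per barcode. A barcode needed at least 500 UMIs, under 5% mitochondrial UMIs, at least 4 UMIs over 2 or more genes and at least 8 per 10000 UMIs from the fibroblast genes Pdgfra, Col14a1, Gfpt2, C7 and Dclk1. It could hold at most 2 UMIs of the mesothelial genes Muc16, Gpm6a and Rbfox1 and at most 2 of Nkain3 and Itgbl1, which mark another fibroblast population. The last step asked for at least 2 UMIs of Dpp4, Pi16, Sema3c and Anxa3 together. It left 1156 of 20146 barcodes, 643 of 12060 in the flox control library and 513 of 8086 in the library labelled Prdm16 cKO. They are called progenitor-gated nuclei here, and the 204 control and 167 cKO-labelled nuclei that passed all steps but the last are called the remaining fibroblast-gated nuclei.

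Nuclei came from perivascular fat around the mesenteric vessels of mice aged 11 weeks and were sequenced with droplet 3′ chemistry. Both groups carried the floxed Prdm16 allele, written Prdm16flox in the labels, and the 1 library of the second genotype also carried a Cre allele, spelled AdopiQCre+ in the labels. It is read here as a Cre recombinase driven by the adiponectin promoter, which is active in mature adipocytes. The control library is titled wt although its genotype is Prdm16flox, and the labels do not state the strain or how many animals a library pools. The series title names thoracic and abdominal fat, whereas both samples are labelled mesenteric, and the sample labels were followed. With 1 library per genotype no difference between genotypes could be tested, so the values below carry exact 95% intervals that cover counting error only and not the spread between animals.

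The progenitor-gated nuclei held 4983801 UMIs in the control library and 3745563 in the cKO-labelled one, with medians of 6724 and 6278 UMIs per nucleus. The remaining fibroblast-gated nuclei were shallower, at medians of 4581.5 and 4000 UMIs. In all, 28 barcode sequences occurred in both libraries, of which 1 was progenitor-gated in each. Prdm16, the targeted gene, encodes a zinc finger regulator of thermogenic fat identity. In adipocyte nuclei its level was 17.7 counts per 1000000 UMIs (CPM) in control mice and 25.6 CPM under the cKO label, so it was not lower there. The labels do not say which exons the floxed allele removes, and 3′ counts outside them would not show a deletion. In progenitor-gated nuclei Prdm16 stood at 12.6 CPM (63 UMIs) and 13.3 CPM (50 UMIs), a log2 ratio of 0.08 with an interval of -0.49 to 0.64.

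The share of progenitor-gated nuclei among fibroblast-gated nuclei differed between the libraries by less than counting error. It was 75.9% (643 of 847, exact Clopper-Pearson interval 72.9% to 78.8%) in the control library and 75.4% (513 of 680, 72.0% to 78.6%) in the cKO-labelled library. Of all kept nuclei they made up 5.54% (643 of 11611, 5.13% to 5.97%) and 6.52% (513 of 7869, 5.98% to 7.09%). The second pair of intervals did not overlap, but this share also moves with the number of nuclei of every other type recovered.

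The 4 genes of the last step did not contribute equally. Dpp4 lies on chromosome 2 (62330073 to 62412231, minus strand), Pi16 on chromosome 17 (29317680 to 29330593, plus strand), Sema3c on chromosome 5 (17574281 to 17730268, plus strand) and Anxa3 on chromosome 5 (96793339 to 96845966, plus strand) of GRCm38. Sema3c, a secreted semaphorin, gave 56.0% and 59.9% of the UMIs of the 4 genes in the control and the cKO-labelled library. It was detected in 92.7% and 93.8% of progenitor-gated nuclei. Anxa3, a calcium-dependent phospholipid-binding protein, was detected in 67.3% and 59.8%, Dpp4 in 53.8% and 48.1%, and Pi16 in 32.7% and 35.7%. A UMI of Dpp4 or Pi16 was seen in 406 of 643 nuclei (63.1%) of the control and 324 of 513 (63.2%) of the cKO-labelled library, and 237 and 189 were admitted on Sema3c and Anxa3 with neither. Sema3c alone admitted 92 and 97 nuclei. All 4 genes together were seen in 120 control nuclei (18.7%) and 73 cKO-labelled nuclei (14.2%). Pdgfra, a receptor found on most adipose stromal cells and part of the fibroblast step, had a UMI in 67.5% and 66.9%.

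The levels of Pi16 and Dpp4 were set beside those of other cell types as a description only, since both genes helped to choose the progenitor-gated nuclei. The Pi16 level in progenitor-gated nuclei was 111 CPM in the control and 135 CPM with the cKO label. In mesothelial nuclei it was 5.97 and 6.39 CPM, in B cell nuclei 6.72 and 15.2 CPM, and in adipocyte nuclei 3.77 and 5.84 CPM. The excluded Nkain3 and Itgbl1 nuclei came nearest, at 77.8 and 56.2 CPM. Dpp4 stood at 191 and 185 CPM in progenitor-gated nuclei, but at 616 and 652 CPM in mesothelial nuclei and at 141 and 146 CPM in B cell nuclei.

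The Dpp4 levels of B cell nuclei were also close at equal depth. After each nucleus was thinned to 2000 UMIs, which left out 2 control and 10 cKO-labelled progenitor-gated nuclei as too shallow, Dpp4 was detected in 27.1% and 25.4% of progenitor-gated nuclei. In B cell nuclei the thinned share was 23.1% and 25.5%, and in mesothelial nuclei 61.6% and 68.3%. Before thinning, the shares of nuclei with a Dpp4 UMI were 53.8% and 48.1% in progenitor-gated nuclei (median depths above) and 41.9% and 49.1% in B cell nuclei (median depths of 4374.5 and 5011 UMIs). Adipocyte nuclei, with a thinned Dpp4 share of 5.61% and 5.99%, lay well under all of these. Thinned Pi16 shares were 15.6% and 19.3% in progenitor-gated nuclei, 12.96% and 13.51% in the excluded Nkain3 and Itgbl1 nuclei, and 1.20% and 2.04% in B cell nuclei. Neither gene alone set these nuclei apart from all other sets, and the name was checked on genes outside the rule, described next.

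**Figure D1:**
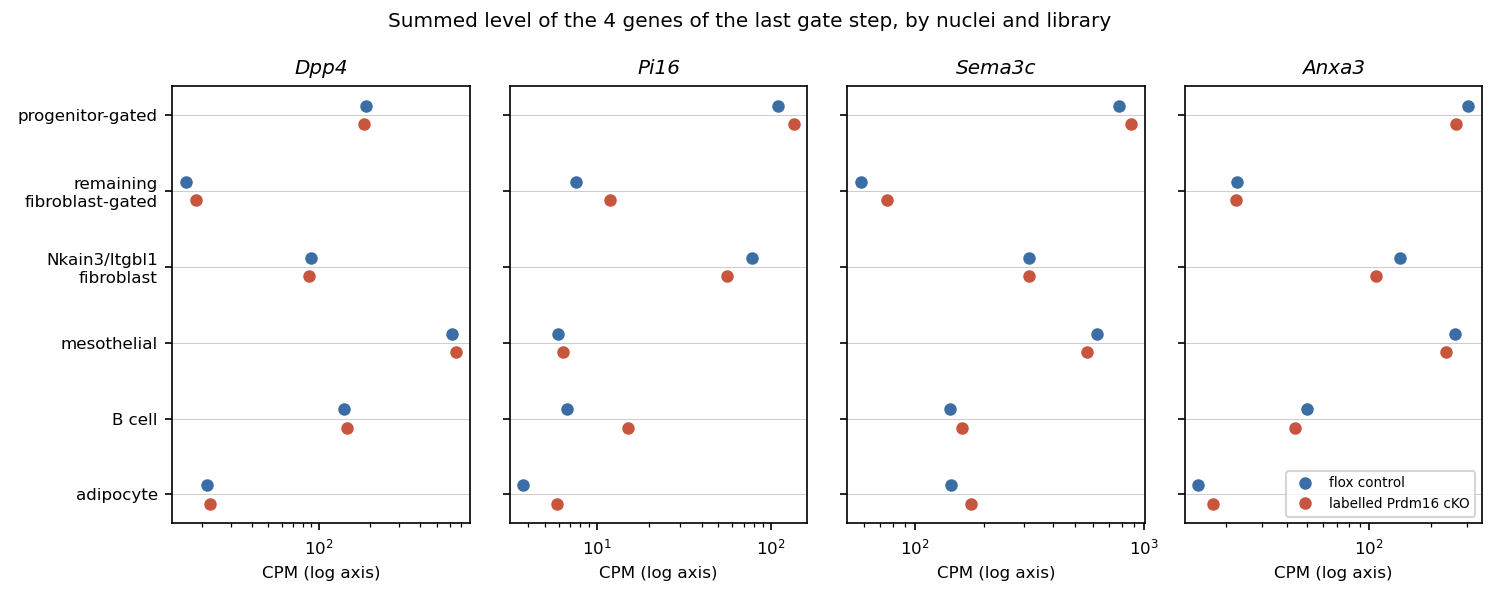
Summed level (CPM, log axis) of Dpp4, Pi16, Sema3c and Anxa3 in 6 sets of nuclei, with 1 point per library. Pi16 is at 111 and 135 CPM in progenitor-gated nuclei and at most 15.2 CPM in mesothelial, B cell and adipocyte nuclei, whereas Dpp4 is highest in mesothelial nuclei at 616 and 652 CPM.

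Traces of other cell types were present. The summed level of 5 adipocyte genes (Adipoq, Plin1, Plin4, Cidec and Lipe) in progenitor-gated nuclei was 25.8% and 29.0% of that in adipocyte nuclei, and it was 24.3% and 27.6% in the remaining fibroblast-gated nuclei and 36.0% and 51.5% in B cell nuclei. The sum of 11 mesothelial markers was 281 and 239 CPM against 4214 and 3976 CPM in mesothelial nuclei, with Krt18 at 0 in the cKO-labelled library. Schwann markers summed to 19.3 and 19.5 CPM, and Sox10 was at 0 in the cKO-labelled library.

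Genes outside the rule were then compared between the progenitor-gated and the remaining fibroblast-gated nuclei, within each library. Of 11221 genes with enough UMIs (at least 20 in each library over the 2 sets), 129 were at least 2-fold higher in progenitor-gated nuclei in both libraries (1.15%) and 36 at least 2-fold lower in both (0.321%). The ratios describe nuclei of the same libraries that the gate itself had split, so they are given with no test. The remaining nuclei had no more than 1 UMI of the 4 genes and were shallower, and the number of genes past the fold was 79 higher and 19 lower after thinning to 2000 UMIs. Thinning lowers the UMIs per gene, and the number of genes measured after it is not given here. The thinned counts therefore carry no share and do not show how depth alters the ratios.

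Adamts16, a secreted metalloprotease on chromosome 13 (70727802 to 70841811, minus strand), led the genes higher in progenitor-gated nuclei. Its level was 98.3 CPM against 5.71 CPM in the control library (log2 ratio 4.11, interval 2.97 to 5.56) and 85.2 against 3.96 CPM in the cKO-labelled library (4.43, 2.87 to 6.71). Efhd1, a mitochondrial calcium-binding protein encoded on chromosome 1 (87264363 to 87310839, plus strand), was at 85.9 against 1.90 CPM (5.50, 3.64 to 8.55) and 76.6 against 5.28 CPM (3.86, 2.49 to 5.74). Sema3e, the semaphorin ligand of the plexin D1 receptor, was at 106 CPM in progenitor-gated and 11 UMIs in all in the remaining control nuclei (3.34) and 79.3 against 7.93 CPM (3.32). Bmp6, a bone morphogenetic protein ligand on chromosome 13 (38345107 to 38500302, plus strand), was at 210 against 29.5 CPM (log2 ratio 2.84) and 175 against 21.1 CPM (3.05).

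Further genes among the 15 highest encoded matrix enzymes, secreted factors and membrane proteins. Has2, a hyaluronan synthase, was at 34.3 against 4.75 CPM (2.85) and 34.4 against 5.28 CPM (2.70), from 77 control and 57 cKO-labelled nuclei. Its control ratio depended on the last step: it was -0.026 with Dpp4 or Pi16 needed, 0.75 with 3 UMIs and 0.64 with 2 per 10000 UMIs. In the cKO-labelled library Has2 was 2.12, 2.63 and 2.96 under those settings and 1.28 after thinning. The calcium-activated channel family member Ano3 gave log2 ratios of 3.12 and 3.26, and Mtcl1, a microtubule crosslinking protein, 2.52 and 2.45. Edn1, which encodes the vasoconstrictor endothelin 1, was at 11.8 CPM in control progenitor-gated nuclei, where the remaining nuclei held 1 UMI (log2 ratio 3.64, interval 1.10 to 8.97). In the cKO-labelled library Edn1 was at 13.1 CPM against no UMI, at least 3.30-fold higher against a floor of 3 UMIs over the set. The dual oxidase gene Duox1 had ratios of 3.25 (0.70 to 8.58) and 2.50 (-0.10 to 7.85), and its maturation factor Duoxa1 was at 5.82 CPM against no UMI (at least 2.04-fold higher) and at 10.4 against 1.32 CPM (2.98, 0.42 to 8.32). Against the same floor Ccn3, a secreted matricellular protein, was at least 2.56-fold, the synaptic vesicle gene Sv2c at least 2.36-fold and Ptchd4 at least 3.03-fold higher in the cKO-labelled library. In the control library their ratios were 2.66 (0.75 to 5.74), 2.66 (0.07 to 8.01) and 3.04 (1.14 to 6.11). Single progenitor-gated nuclei held 20.5% of the control and 40% of the cKO-labelled UMIs of Ptchd4. For Sv2c they held 23.3% and 11.4%. The unnamed transcript F730311O21Rik had 2.71 and 2.30. Its level was higher in B cell nuclei, at 36.6 and 31.9 CPM against 24.9 and 19.5 CPM in progenitor-gated nuclei. The intervals of Duox1, Duoxa1 and Sv2c are wide because the remaining nuclei held at most 1 UMI of each in a library.

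Genes used elsewhere to define interstitial progenitors pointed the same way. Of 24 such genes outside the rule, 21 had enough UMIs, and 20 of them were higher in progenitor-gated nuclei in both libraries, beside 27.5% of all genes. The exception was Igfbp6, at -0.08 and 0.25. Their median log2 ratios were 1.14 and 1.08, beside 0.00 and 0.00 over all genes, and 12 were past 2-fold in both. Creb5, a transcription factor on chromosome 6 (53287270 to 53700376, plus strand) and a marker given with the rule but not used by it, was at 1211 against 449 CPM (1.43, 1.30 to 1.57) and 1153 against 448 CPM (1.36, 1.21 to 1.53). Cd55, a complement-decay protein on the cell surface, was at 263 against 80.8 CPM (1.70) and 207 against 54.2 CPM (1.94). Thinned Cd55 shares were 29.6% and 26.2% in progenitor-gated nuclei and 31.8% and 30.1% in B cell nuclei. Cd55 therefore did not set progenitor-gated nuclei apart from B cell nuclei.

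The other members past 2-fold covered matrix, signalling and cytoskeletal genes. Limch1, an actomyosin regulator, had log2 ratios of 2.04 and 1.70, and Opcml, a cell adhesion molecule, 1.64 and 1.39. Thinned Opcml shares were 55.9% and 58.1% in progenitor-gated and 46.2% and 48.3% in mesothelial nuclei. The microfibril genes Fbn1 and Mfap5 had 1.74 and 1.17, and 1.10 and 1.08. The sphingomyelinase gene Smpd3 had 1.24 in both libraries, the chemokine-scavenging receptor Ackr3 1.01 and 1.04, and Cd248 1.11 and 1.15. Dact2, an intracellular modulator of Wnt and TGF-beta signalling, was at 21.1 against 2.85 CPM (2.88, 1.30 to 5.19) and 28.3 against 1.32 CPM (4.42, 1.91 to 9.74). Bmp7 was at 11.8 against 3.80 CPM (1.64, 0.21 to 3.56) and 13.1 against 2.64 CPM (2.31, 0.38 to 5.39). Cd34 (0.39 and 0.31), Ly6a (0.35 and 0.44) and Tnxb (0.03 and 0.11), also on that list, were nearly level. Wnt2 gave 14 and 11 UMIs in progenitor-gated nuclei, too few for the comparison, as were Stmn4 and Uchl1.

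Committed preadipocyte genes were not set apart in the same manner. Of 15 measured, 2 were higher and 8 lower in both libraries, with medians of -0.11 and -0.17 and none past 2-fold in either direction. Of all measured genes, 27.5% were higher and 27.8% lower in both. Pparg, the master regulator of fat cell formation, was at 665 against 627 CPM (0.09) and 883 against 830 CPM (0.09). Col15a1, a basement membrane collagen, was at 164 against 300.5 CPM (-0.88, -1.06 to -0.68) and 135 against 235 CPM (-0.80, -1.05 to -0.55). Pdgfrb (-0.62 and -0.77), Sparcl1 (-0.70 and -0.76) and Ggt5 (-1.12 and -0.63) were lower as well. For Pparg, Lpl, Fabp4, Cd36 and Car3, which adipocytes also express, adipocyte RNA was present in both sets at the near-equal levels given above, and its part in these ratios was not tested.

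The genes of the F3-marked stroma were mostly lower in progenitor-gated nuclei. Of 7 measured, 6 were lower in both libraries, beside 27.8% of all genes, with medians of -1.10 and -0.63. Inmt, a methyltransferase, was at 54.8 against 187 CPM (-1.77, -2.04 to -1.50) and 74.0 against 192 CPM (-1.37, -1.67 to -1.07). Gdf10, a TGF-beta family ligand, was at 17.7 against 53.3 CPM (-1.59) and 24.0 against 56.8 CPM (-1.24). Fmo2, a flavin monooxygenase, was at 281 against 778 CPM (-1.47) and 462 against 804 CPM (-0.80). F3, tissue factor itself, was at 91.3 against 143 CPM and 116 against 180 CPM.

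**Figure D2:**
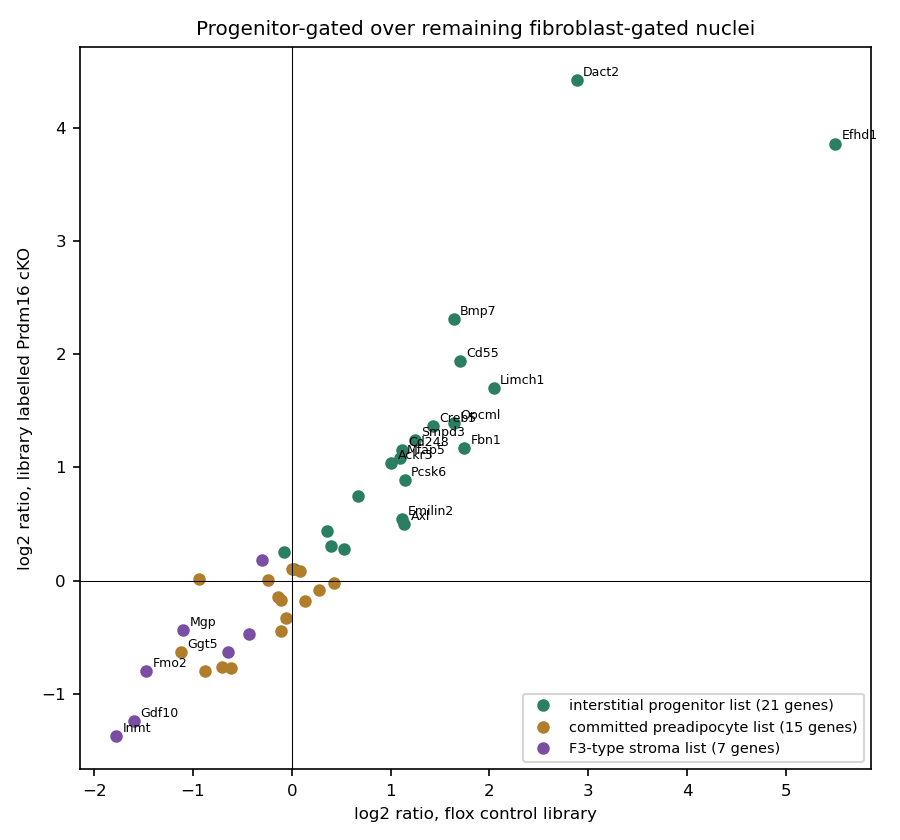
Log2 ratio of progenitor-gated over remaining fibroblast-gated nuclei, in the control library on the x axis and the cKO-labelled library on the y axis, for the measured genes of 3 lists. The interstitial list lies up and right, from Igfbp6 at -0.08 and 0.25 to Efhd1 at 5.50 and 3.86, and Inmt, Gdf10 and Fmo2 lie lowest on the left.

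Wnt and TGF-beta or BMP genes stood on either side about as often as all measured genes, of which 27.5% were higher and 27.8% lower in both libraries. Among 28 measured Wnt ligands, receptors and inhibitors, 9 were higher and 9 lower in both. Those past 2-fold were Dact1 (82.1 against 36.1 CPM and 77.2 against 31.7 CPM), Dact2, the secreted Wnt antagonist Sfrp4 (1.03 and 1.06) and the ligand Wnt10b, which had 2 and 1 UMIs in the remaining nuclei and ratios of 1.34 (-0.67 to 4.47) and 2.15 (-0.48 to 7.52). Among 34 TGF-beta and BMP genes, 11 were higher and 11 lower, with the ligands Bmp6 and Bmp7 past 2-fold upward and Gdf10 among those past it downward. Of 18 elastic fibre and matrix glycoprotein genes, 15 were higher in both libraries, with medians of 0.29 and 0.72. The fibronectin gene Fn1 was at 454 against 180 CPM (1.34) and 389 against 193 CPM (1.01). Of 24 collagens, 3 were higher and 15 lower, with Col12a1 at 1.36 and 1.53 and Col6a5 at -1.42 and -2.31.

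Vascular endothelial markers moved with this comparison and their part in it was not tested. The sum of 9 markers was 435 and 371 CPM in progenitor-gated nuclei against 220 and 213 CPM in the remaining nuclei. Tek, a receptor of angiopoietins, made up most of the excess, at 230 against 76.1 CPM and 208 against 84.5 CPM, whereas the junction gene Cdh5 was at 9.03 and 4.27 CPM in progenitor-gated nuclei.

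Among the genes lowest in progenitor-gated nuclei, several had few UMIs. Lrrtm3, a synaptic adhesion protein, was at 8.83 against 37.1 CPM (-2.07) and 16.6 against 68.7 CPM (-2.05), and its UMIs came from 11 and 13 progenitor-gated nuclei. Its ratios were -4.19 and -4.15 with Dpp4 or Pi16 needed, and its control ratio was -0.60 after thinning. Sgcz was at -1.98 and -3.26, Gna14 at -1.98 and -2.08, Akap6 at -2.14 and -1.89 and Cntfr, a subunit of the ciliary neurotrophic factor receptor, at -1.76 and -1.91. Gm13052 had -1.87 and -1.31, and Ogfrl1 had -1.29 and -1.38. Sgcz and Akap6 were below 5 CPM in the progenitor-gated nuclei of both libraries.

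The last step of the gate cut the nuclei by their count of the 4 genes. For Creb5 and Fbn1 most of the difference lay at the upper end of that count. Whether the nuclei form a continuous range or separate populations was not tested. Nuclei with exactly 2 UMIs of the 4 genes, just inside the threshold, numbered 100 and 78, and those with 1 UMI, just outside, 110 and 97. Creb5 was at 564 and 366 CPM just inside and 504 and 460 CPM just outside. Fbn1 was at 832 and 417 CPM inside and 738 and 614 CPM outside. From 5 to 8 UMIs Creb5 was at 693 and 716 CPM, and at 9 or more UMIs, in 240 control and 187 cKO-labelled nuclei, it was at 1928 and 1916 CPM. For both genes the nuclei just inside the threshold lay closer to those just outside than to those at the upper end, where Fbn1 was at 3804 and 2806 CPM.

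Further genes outside the rule were highest or lowest at the upper end. Adamts16 was at 8.68 and 11.0 CPM in nuclei with none of the 4 genes, at 0 in nuclei with exactly 2 UMIs in both libraries, at 33.0 and 16.7 CPM with 5 to 8, and at 196 and 184 CPM with 9 or more. Efhd1 went from 3.41 and 7.57 CPM at 2 UMIs to 157 and 147 CPM at 9 or more. Fmo2 ran the other way, at 764 and 972 CPM with none of the 4 genes, 413 and 720 CPM with 2 UMIs and 133 and 249 CPM with 9 or more. Col15a1 was at 313 and 199 CPM with none and 72.7 and 77.3 CPM with 9 or more. Pparg showed no such order, at 690 and 795 CPM with none and 574 and 840 CPM with 9 or more. Median depth also rose along these steps, from 4369.5 and 3389.5 UMIs with none to 8005 and 7159 with 9 or more. CPM is scaled to total UMIs, but the step a nucleus falls in depends on its depth.

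**Figure D3:**
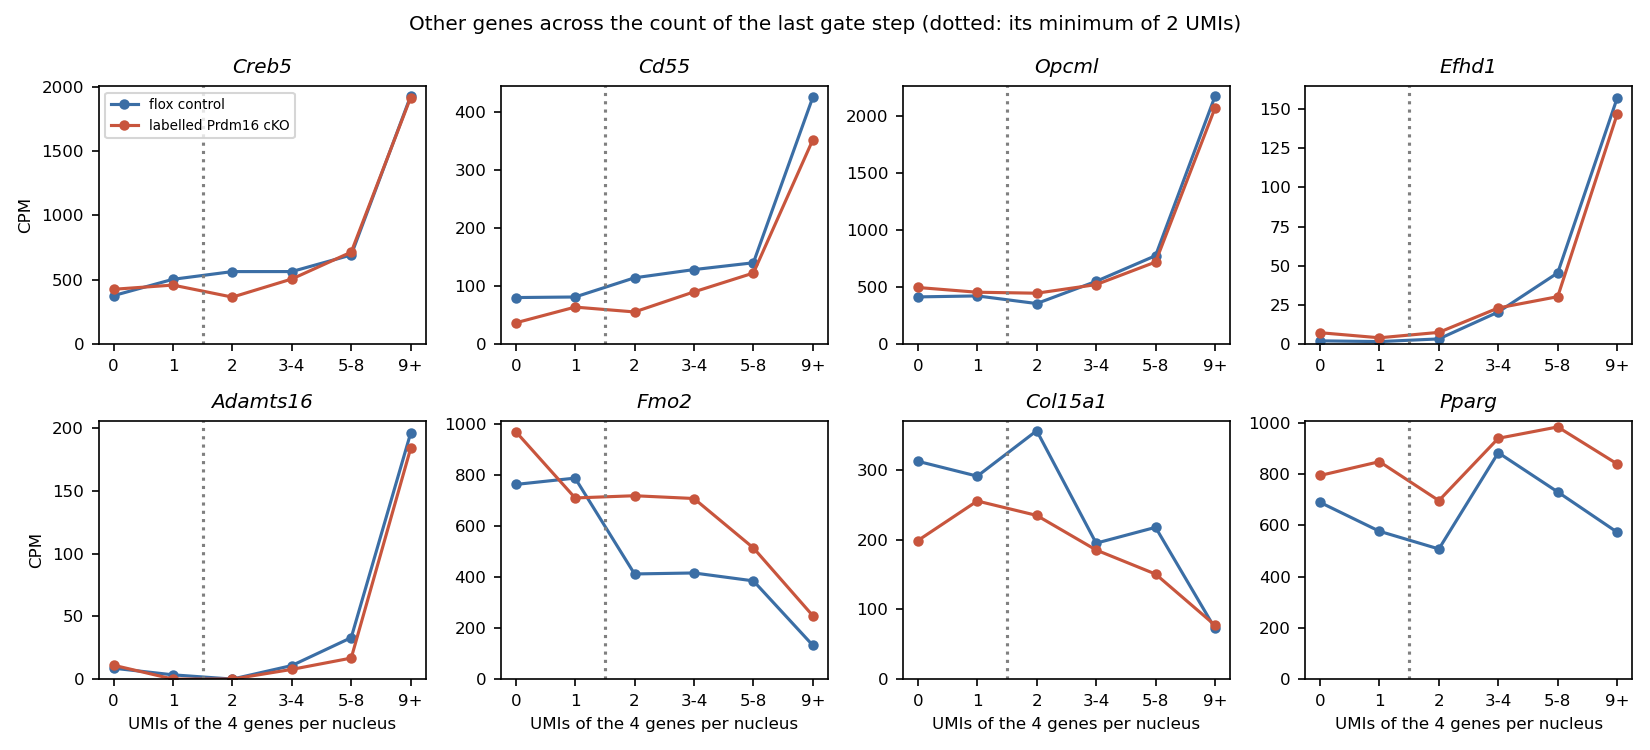
Level (CPM) of 8 genes outside the rule in nuclei ordered by their UMIs of Dpp4, Pi16, Sema3c and Anxa3, with 1 line per library. Creb5, Cd55, Opcml, Efhd1 and Adamts16 are highest in nuclei with 9 or more UMIs, where Creb5 reaches 1928 and 1916 CPM, and Fmo2 and Col15a1 are lowest there.

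Within the progenitor-gated nuclei, those with a UMI of Dpp4 or Pi16 differed from those admitted on Sema3c and Anxa3 alone. Of 10658 genes measured in this split, 77 were at least 2-fold higher in both libraries (0.722%) and 39 lower (0.366%). Adamts16 was at 145.5 against 9.81 CPM (3.89) and 130 against 2.27 CPM (5.85, 4.29 to 8.13). Sema3e was at 147 against 28.8 CPM (2.35) and 118 against 7.56 CPM (3.97), and Bmp7 at 16.3 against 3.46 CPM and 19.4 against 1.51 CPM (3.68, 1.75 to 6.77). Efhd1 (1.95 and 2.72) and Unc13c (2.62 and 2.74) were higher too. Lower genes included Cyp7b1, an oxysterol hydroxylase, at 45.2 against 144 CPM (-1.67) and 37.1 against 117 CPM (-1.66), and Col15a1, at 117 against 251 CPM and 110 against 181 CPM. Cdh19 and Cadm2, which Schwann cells express, were also lower, at 3.38 against 32.3 CPM and 6.15 against 104 CPM in the control library. These genes were chosen for mention after their values were seen.

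Adamts16 was detected in a subset, a split also made after the values were seen. It had a UMI in 106 control nuclei (16.5%) and 68 cKO-labelled nuclei (13.3%), whose median depths of 6975 and 6715 UMIs were close to the 6601 and 6223 of nuclei without it. Nuclei with Adamts16 held a median of 19.5 and 21 UMIs of the 4 rule genes, against 5 and 5. Pi16 was at 210 and 294 CPM with Adamts16 and at 89.5 and 108 CPM without. Adamts16 was picked as the gene that the gate on these rule genes raised most. Their higher values with it follow from that choice and are description only. Bmp6 was at 471 and 424 CPM with and 155 and 133 CPM without, Creb5 at 2235 and 2514 CPM with and 993 and 922 CPM without, and Efhd1 at 257 and 239 CPM with and 49.6 and 49.0 CPM without. Fmo2 was at 41.3 and 125 CPM with and 331 and 519 CPM without. Adipoq was at 80.2 against 80.5 CPM in the control library and 64.3 against 92.5 CPM in the cKO-labelled library.

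The genotype comparison asks whether stromal progenitors differ when Prdm16 is targeted in adipocytes. Of 12048 genes with at least 30 UMIs over both libraries, 834 were at least 1.5-fold higher in cKO-labelled progenitor-gated nuclei (6.92%) and 539 at least 1.5-fold lower (4.47%). The median log2 ratio over these genes was 0.03, and 54.2% were above 0. Interstitial progenitor genes were divided evenly: of 22 measured genes of the interstitial list, 11 were higher and 11 lower, none past 1.5-fold, with a median of 0.02. Under the alternatives that median lay between -0.06 and 0.07.

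Pancreatic genes, most of them for digestive enzymes, were frequent among the genes highest by the lower bound of their interval, and they were also higher outside the fibroblast gate. The first gene by that bound was 9330154J02Rik, a processed transcript with 2 UMIs in control and 47 in cKO-labelled progenitor-gated nuclei (4.97, 3.03 to 8.05). It had a log2 ratio of 1.90 in adipocyte nuclei, and in the remaining fibroblast-gated nuclei it had 8 and 1 UMIs. Cpb1, a pancreatic carboxypeptidase, was at 21.3 CPM in control and 168 CPM in cKO-labelled progenitor-gated nuclei (2.98, interval 2.68 to 3.29), with a log2 ratio of 2.22 in nuclei outside the fibroblast gate. Cela1 was at 40.3 and 182 CPM (2.18) with 2.07 outside. Single nuclei held 41.3% of the control UMIs of Cela1, 27.4% of those of Cpb1 and 32.1% of those of Pnlip. For each of these genes the nucleus with most UMIs over both libraries was a cKO-labelled one. Without it the ratios were 1.96, 2.85 and 2.25, with the control nuclei just named still included. Ctrb1, Ctrc, Ctrl, Pnlip, Pdia2, Try5, Cela3b, Prss2 and Rnase1 also belonged to the 15 highest, between 2.46 and 3.11. For these pancreatic genes the ratio in progenitor-gated nuclei was above that outside the gate by 0.09 (Pnlip) to 0.93 (Ctrc), a difference that was not tested. The lincRNA Gm50337 had 2.41, with 1.55 outside. Its level was 4.21 and 22.4 CPM in progenitor-gated nuclei but 18.3 and 48.9 CPM in adipocyte nuclei (1.42). The part of adipocyte RNA in its ratio was not tested. The sum of 8 acinar markers was 89.5 and 482 CPM in progenitor-gated nuclei, 65.7 and 331 CPM in adipocyte nuclei and 213 and 699 CPM in B cell nuclei. Among the 15 lowest, the intestinal genes Malrd1 (-4.11, -6.42 to -2.50), Defa24 (-4.72, -10.06 to -2.14), Itln1 (-3.68, -6.78 to -1.71) and Vil1 (-3.63, -6.74 to -1.66) had 1 to 3 UMIs in cKO-labelled progenitor-gated nuclei. They were lower outside the gate as well, at -2.05, -2.76, -1.99 and -1.09. The 6 intestinal markers summed to 61.4 and 29.1 CPM.

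Several of the lowest genes rested on single nuclei. Of the control UMIs of Slc35f1, 88.5% came from 1 nucleus, and so did 79.3% of those of Dgki, 66.2% of Sema3a, 65.4% of Nr4a3, 45.7% of Slc8a3 and 41.1% of Tmem108. Slc35f1 was at 24.5 and 3.74 CPM (-2.71), and without that 1 control nucleus the log2 ratio was 0.41. All cKO-labelled nuclei were kept in that ratio, although 1 of them held 35.7% of the UMIs of Slc35f1 there. A selection made after these values were seen therefore kept genes with at least 100 UMIs and no nucleus above 10% of them. Of 8091 such genes, 210 were at least 1.5-fold higher (2.6%) and 87 lower (1.08%).

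Genes of the circadian clock, the daily transcription cycle of most cells, stood on both sides. Of 19 measured, 14 were higher in the cKO-labelled library and 5 lower, with 6 past 1.5-fold upward, 3 downward and a median of 0.32. Of all measured genes 54.2% were higher, 6.92% past 1.5-fold upward and 4.47% past it downward. The genes of the activating complex were lower: Npas2, on chromosome 1 (39193731 to 39363236, plus strand), was at 87.5 and 30.2 CPM (-1.54, -1.85 to -1.23), Arntl at 110 and 47.8 CPM (-1.20, -1.45 to -0.95) and Clock at 175 and 120 CPM (-0.54, -0.71 to -0.37). Genes known as targets of that complex were higher: Dbp was at 26.5 and 51.3 CPM (0.95, 0.63 to 1.28), Per3 at 125 and 223 CPM (0.83, 0.68 to 0.99), Hlf at 94.1 and 155 CPM (0.72) and Tef at 198 and 304 CPM (0.61). Nuclei outside the fibroblast gate showed the same directions, with -1.74 for Npas2, -0.93 for Arntl, -0.36 for Clock, 0.80 for Dbp, 0.54 for Per3, 0.31 for Hlf and 0.35 for Tef. Nfil3, a repressor of the same target genes, was at 8.23 and 3.47 CPM from 41 and 13 UMIs (-1.25, -2.27 to -0.32), with -0.08 outside the gate. The labels do not state the hours at which tissues were taken, and hour and genotype cannot be told apart.

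Acly, Fasn and Ppp1r3b belonged to the evenly spread genes that were higher, and they were picked for mention after their values were seen. Acly, which makes cytosolic acetyl-CoA, was at 213 and 485 CPM (1.19), and Fasn, the fatty acid synthase, at 129 and 293 CPM (1.18). In adipocyte nuclei these genes had log2 ratios of 1.15 and 1.04. Ppp1r3b, a glycogen-targeting phosphatase subunit, was at 17.3 and 64.1 CPM (1.89), with 1.52 in adipocyte nuclei. The summed level of 13 adipocyte markers was 8239 and 10272 CPM in progenitor-gated nuclei and 29567 and 32488 CPM in adipocyte nuclei, and its part in these ratios was not tested.

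Some genes had larger ratios in progenitor-gated nuclei than in all nuclei outside the gate together. Fmo2 was at 281 and 462 CPM (0.72, 0.62 to 0.82), with 0.16 outside the fibroblast gate and 0.05 in the remaining fibroblast-gated nuclei, but 0.56 in adipocyte nuclei. Ccbe1, a secreted factor in lymphatic growth, was at 122 and 203 CPM (0.74, 0.58 to 0.90), with -0.11 outside and -0.07 in the remaining nuclei. The matrix proteins Podn (0.59, with 0.22 outside) and Mgp (0.72, with 0.34 outside and 0.59 in adipocyte nuclei) were higher as well. C7, a complement component, was at 636 and 1046 CPM (0.72, with 0.23 outside), but it belongs to the fibroblast step of the gate. All 7 measured genes of the F3-marked stroma were above 0, beside 54.2% of all genes, with a median of 0.43, and 2 of them, Fmo2 and Mgp, were past 1.5-fold, beside 6.92%. Not all of them had their larger ratio in progenitor-gated nuclei. Inmt was at 0.43, with 0.83 outside the gate, 0.93 in adipocyte nuclei and -0.59 in the Nkain3 and Itgbl1 nuclei, and Gdf10 at 0.44, with 0.68 outside. No test of the difference between sets of nuclei was possible with 1 library per genotype.

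Elastic fibre genes stood mostly on the lower side. Eln, the elastin gene, was at 294 and 158 CPM (-0.89, -1.03 to -0.75), with -0.57 outside the gate and -0.11 in the remaining fibroblast-gated nuclei. Fbn1, which forms the microfibrils on which elastin is laid down, was at 2402 and 1651 CPM (-0.54, -0.59 to -0.50), with -0.35 outside and 0.03 in the remaining nuclei. Of 18 measured elastic fibre and glycoprotein genes, 13 were lower and 5 higher, with a median of -0.15. Of 26 collagens, 17 were lower, beside 45.8% of all genes, with a median of -0.16. Errfi1, an inhibitor of the epidermal growth factor receptor, was at 245 and 154 CPM (-0.68, -0.82 to -0.53) with -0.10 outside, and Mctp1 at 179 and 99.3 CPM (-0.85) with -0.22 outside.

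Immediate early genes were mostly lower. Of 14 measured, 12 lay below 0, beside 45.8% of all genes, and the median was -0.37. Jun was at 29.9 and 19.8 CPM (-0.60), and Fos at 5.42 and 2.14 CPM (-1.34), a level that few UMIs support. Junb, at 13.4 and 19.8 CPM (0.56), went against the rest. Complement genes were mostly higher, with 11 of 14 above 0, beside 54.2% of all genes, and a median of 0.30, among them Cfd at 158 and 230 CPM (0.54), C1ra (0.64) and C2 at 19.1 and 29.6 CPM (0.64). Cfd, or adipsin, is also an abundant adipocyte product and had a log2 ratio of 0.37 in adipocyte nuclei. Committed preadipocyte genes lay above 0 in 9 of 15 cases, and their median of 0.20 ran from -0.09 to 0.24 under the alternatives. Wnt and TGF-beta or BMP genes were divided, with 14 of 31 and 16 of 38 above 0 and a median of -0.02 each.

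**Figure D4:**
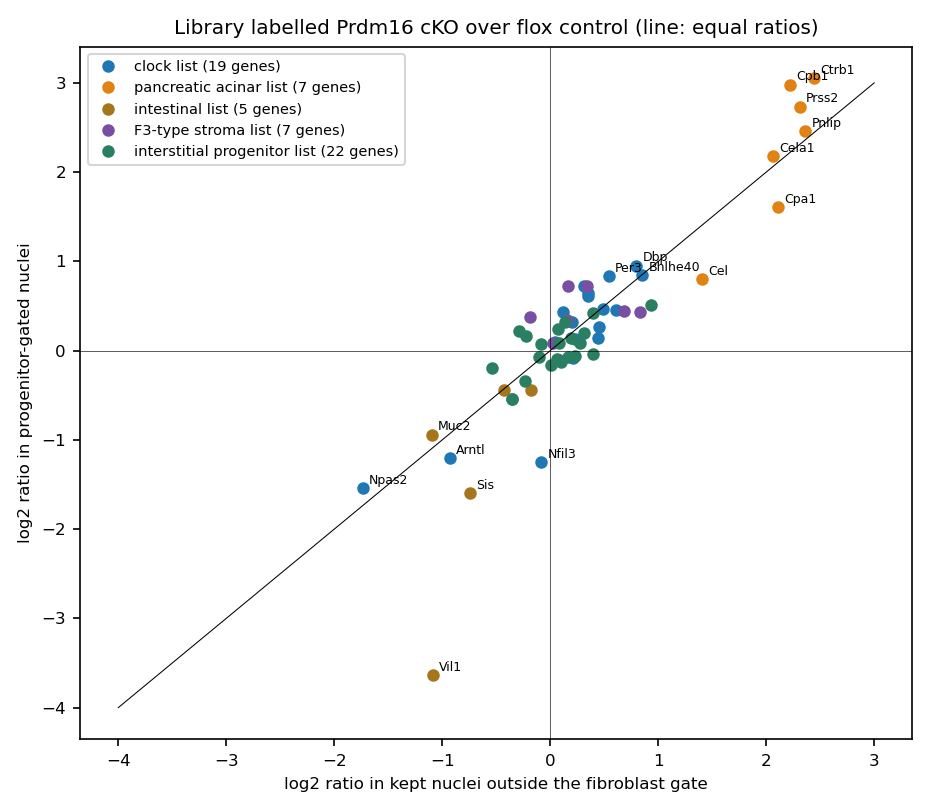
Log2 ratio of the cKO-labelled over the control library, in kept nuclei outside the fibroblast gate on the x axis and in progenitor-gated nuclei on the y axis, for measured genes of 5 lists, with a line of equal ratios. Acinar genes lie at the upper right (Cpb1 at 2.22 and 2.98), Npas2 and Arntl at the lower left, and the 22 interstitial genes around 0.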

How the data were processed

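Both libraries are matrices of raw UMI counts per gene and barcode, deposited by the authors and not normalised. They were made with Cell Ranger 6.1.2 on mm10, per the submitters' processing notes. The handling of introns and strand is not given in the sources used here, so overlapping and antisense genes are uncertain. Of the barcodes, 449 control and 217 cKO-labelled ones failed the mitochondrial limit and none the UMI minimum. Counts were summed per set of nuclei and library and scaled to CPM (Python 3.11.15 with scipy 1.17.1, numpy 2.4.6 and pandas 2.3.3). Log2 ratios carry exact conditional binomial intervals at 95%. No count model was fitted, and the ratio code was tested on simulated data. Adipocyte, B cell and mesothelial nuclei were gated as reference sets by their markers, at 20 per 10000 UMIs or more for adipocytes and, for the others, 8 per 10000 or more with at least 4 UMIs over 2 genes. Scrublet (scanpy 1.11.5) marked 0.0086% and 0% of nuclei automatically, so it had not worked, and no doublets were removed in the main values. As an alternative the highest scores were removed at 0.8% per 1000 nuclei, which took 64 and 46 progenitor-gated nuclei. TMM factors came from edgeR 4.0.16.

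The nuclei, gene lists and comparisons were chosen with earlier results of these data known. Named genes were the 15 highest and 10 lowest against the remaining fibroblast-gated nuclei by the library nearer to 0, the 15 highest and 15 lowest between genotypes by the interval bound nearer to 0, and the ends of each list. Others are named as chosen later or as list members. A few genes that this rule names are not reported here. Of the evenly spread genes, those named were chosen after their values were seen. Positions are from GENCODE M21.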

Additional observations from a re-analysis of the deposited data

Results flagged for a closer look

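Slc35f1, a solute carrier family gene, was lower in cKO-labelled progenitor-gated nuclei (-2.71) but higher in the cKO-labelled library among the remaining fibroblast-gated nuclei (2.10) and among adipocyte nuclei (0.47). The directions were opposite, and the difference was not tested. In the control library 1 nucleus held 88.5% of its UMIs in progenitor-gated nuclei.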

How the results depend on the processing

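No paired analysis was possible because there is 1 library per genotype and the labels give no replicate numbers. For the same reason no library could be left out. Asking for 3 UMIs in the last step gave 64.1% and 64.0% of fibroblast-gated and 4.68% and 5.53% of all kept nuclei, and asking for Dpp4 or Pi16 gave 47.9% and 47.6%, and 3.50% and 4.12%. Thinning moved the cKO-labelled share of all kept nuclei to 7.22%. Genes 2-fold higher than in the remaining nuclei numbered 79 when thinned, 230 and 49 with gene minimums of 10 and 100 UMIs, and 277 after subtracting the adipocyte profile. Genes 2-fold lower numbered 58 with 3 UMIs, 63 with Dpp4 or Pi16, 19 when thinned, 73 and 5 with those minimums and 130 after subtraction. Between genotypes the minimums gave 1558 and 252 higher and 1269 and 146 lower, and subtraction 1283 and 1069. The cause was not tested. The minimums alter which genes count. Thinning and subtraction alter the summed UMIs, and the number of genes measured under them is not given here.

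Ratios of 5 genes against a set with no UMI were not recomputed. Some single ratios reversed. Slc35f1 was 0.42 with Dpp4 or Pi16 needed and 0.41 without its top nucleus, an alternative added after the data were seen. With 2 per 10000 UMIs in the last step Tmem108 was 0.16, Mapk10 1.73 and Cxcl13 1.13. Cxcl13 was 0.35 when thinned and Nr4a3 0.39 with 3 UMIs. Has2 was -0.026 in the control library with Dpp4 or Pi16 needed, where the nuclei left out join the comparison set. Of the other named-gene ratios under alternatives, 226 between genotypes and 332 between sets moved by less than their interval, and 29 and 23 moved further without reversing. Among the 29, Sema3a went from -1.78 to -0.04 and Sez6l from -3.60 to -0.93 with 2 per 10000 UMIs in the last step. Median log2 ratios of the clock list stayed between 0.28 and 0.48, the F3-marked stroma between 0.24 and 0.54, immediate early genes between -0.43 and -0.19 and elastic fibre genes between -0.19 and -0.06.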

Other observations

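Of 11 measured hedgehog pathway genes, 7 were higher and 4 lower in the cKO-labelled progenitor-gated nuclei, where 54.2% of all measured genes were higher. Their median log2 ratio was 0.09 against 0.03 over all measured genes. The list's median was -0.12 after thinning to 2000 UMIs and -0.04 with Dpp4 or Pi16 needed. Gli1 and Hhip were past 1.5-fold upward and none downward, where 6.92% of all measured genes were past it upward. Gli1, the pathway's transcription factor and target, was at 11.2 and 20.3 CPM (0.85, 0.34 to 1.38), with 0.63 outside the fibroblast gate. Hhip, a membrane-bound inhibitor of hedgehog ligands, was at 4.61 and 8.28 CPM from 23 and 31 UMIs (0.84, 0.02 to 1.69), with -0.44 outside. With 1 library per genotype there is no test of these differences.

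None of 7 measured macrophage markers was higher in cKO-labelled progenitor-gated nuclei, beside 54.2% of all measured genes. Past 1.5-fold downward were 2 of them, beside 4.47% of all measured genes. The sum over the list of 8 was 579 and 450 CPM. The remaining fibroblast-gated nuclei had sums of 591 and 468 CPM.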
